A study of Mus musculus with 33 samples.

Results

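The DNA replication and S phase genes described here are 51 of the 53735 genes listed for each comparison. They were taken by name from the literature of origin licensing, the replication fork and nucleotide synthesis, and all 51 were found in all 9 of the authors' deposited tables. By role they comprise 11 origin licensing genes, 7 genes of helicase activation, 7 of polymerases and primase, 11 of the sliding clamp, clamp loader, single-strand binding protein and lagging strand, 5 of nucleotide synthesis, 5 of replication-coupled chromatin and 5 regulators of S phase entry. No cut on a measured value chose them, but they were chosen with earlier results of these data known.

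Before a cell copies its genome, the origin recognition complex, Cdc6 and Cdt1 load the ring-shaped Mcm2-7 helicase onto origins, and cyclin E-dependent and other kinases then let Cdc45 and the GINS complex switch that helicase on. DNA polymerases alpha, delta and epsilon, the sliding clamp PCNA and its loader copy the strands, ribonucleotide reductase and thymidylate synthase supply the deoxynucleotides, and chaperones rebuild chromatin behind the fork. The transcripts of most of these genes are made around the G1/S boundary under E2F transcription factors, so that their level in a cell population is widely read as a sign of cycling; in tumours, activated T cells divide, and some macrophages and monocytes can.

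The cells came from C57BL/6 mice with KCKO pancreatic ductal adenocarcinoma cells (100000 per mouse) injected into the tail of the pancreas. Flow cytometry sorted CD8 T cells (CD45+CD8+), macrophages of the tumour (TAM; gated as F4/80+ and Ly6G- among CD45+CD11b+ cells, Ly6C moderate) and inflammatory monocytes (IM; Ly6C+ and Ly6G- among the same CD45+CD11b+ cells), which were sequenced as bulk RNA. In each population there were a combination group (SBRT+IL-12), a group given stereotactic body radiotherapy alone (SBRT, 4 fractions of 6 Gy on days 6 to 9), a group given IL-12 alone (2 mg of microspheres holding 0.5 µg of recombinant IL-12, injected into the tumour on day 10) and an unirradiated group; all mice carried the tumour, and the labels do not say which groups received empty microspheres. There were 33 libraries in 12 groups, 3 in each CD8 and IM group, 3 in the TAM IL-12 group and 2 in each other TAM group.

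Each of the authors' deposited tables compares 1 treatment with no irradiation in 1 population, so the 3 comparisons of a population share their controls. For every gene a table holds a mean normalised level over the libraries of the population, a log2 fold change (treated over unirradiated), a Wald statistic and an adjusted p, but no value per library, so how far single libraries overlapped is not known here. A gene is said to have risen or fallen when the deposited adjusted p was below 0.05. The ± value after a fold change is the standard error implied by fold change and statistic. It is approximate, because the fold changes are shrunken at low levels. In TAM after SBRT the median ratio of fold change to statistic was 0.258 at levels of 30 to 100 and 0.072 at levels of 1 to 3. The ± values can therefore be too small, and the intervals and difference tests that rest on them are approximate too. The labels do not say that each library came from its own mouse, so the deposited p-values measure the spread between libraries. Changes in the share of cycling cells and in RNA per cell cannot be told apart in bulk samples.

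In the authors' deposited tables the replication genes were detected in all 3 populations, and all 51 passed the authors' filter on low levels in every table. The members' mean levels had a median of 3000 in CD8, 600 in TAM and 394 in IM, in normalised counts scaled separately in each population. Summed over the 51 genes, the level in TAM was 18.3% of that in CD8, and the level in IM 11.8%. Per kilobase of exon, Pcna, the sliding clamp, led in all 3 populations, with a mean level of 5397 in CD8, 2192 in TAM and 1771 in IM. In CD8 it was followed by Mcm6, a subunit of the helicase ring, at 4758 per kilobase, and by Rrm2, the small subunit of ribonucleotide reductase, at 3954. In TAM and IM Mcm6 reached 575 and 266 per kilobase, and Rrm2 279 and 146. T cell and macrophage markers set CD8 apart from TAM and IM. The summed level of 8 T cell markers in TAM was 0.63% and in IM 0.683% of that in CD8. That of 9 macrophage markers in CD8 was 0.811% of that in TAM and 3.2% of that in IM. TAM and IM were less apart, with the macrophage markers in IM at 25.3% of those in TAM. The 7 monocyte markers summed to 242131 in IM, 45229 in TAM and 38956 in CD8.

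Fen1, Gins2 and Chaf1a share much of their exon sequence with genes on the opposite strand, and the library kit does not mark strand. Of the annotated exon bases, Fen1 shares 84.2% with Tmem258 and Gm10143, Gins2 shares 67.3% with Gse1, and Chaf1a shares 52.5% with Ubxn6 (GENCODE M21). Reads of the shared stretches cannot be told apart, so these members are uncertain. In all, 18 members share exon bases with another gene, and Fen1, Gins2 and Chaf1a are the 3 at or over 25%. Ccne2 shares 17.4% with Ints8, and Rfc2 15.1% with Lat2. The overlap was looked for after the values were seen. In CD8 after SBRT+IL-12, where Fen1, Gins2 and Chaf1a rose, Tmem258 had 0.14 ± 0.12, Gse1 -0.05 ± 0.16 and Ubxn6 -0.31 ± 0.16 in the authors' deposited table, and none of these 3 passed.

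**Figure D1:**
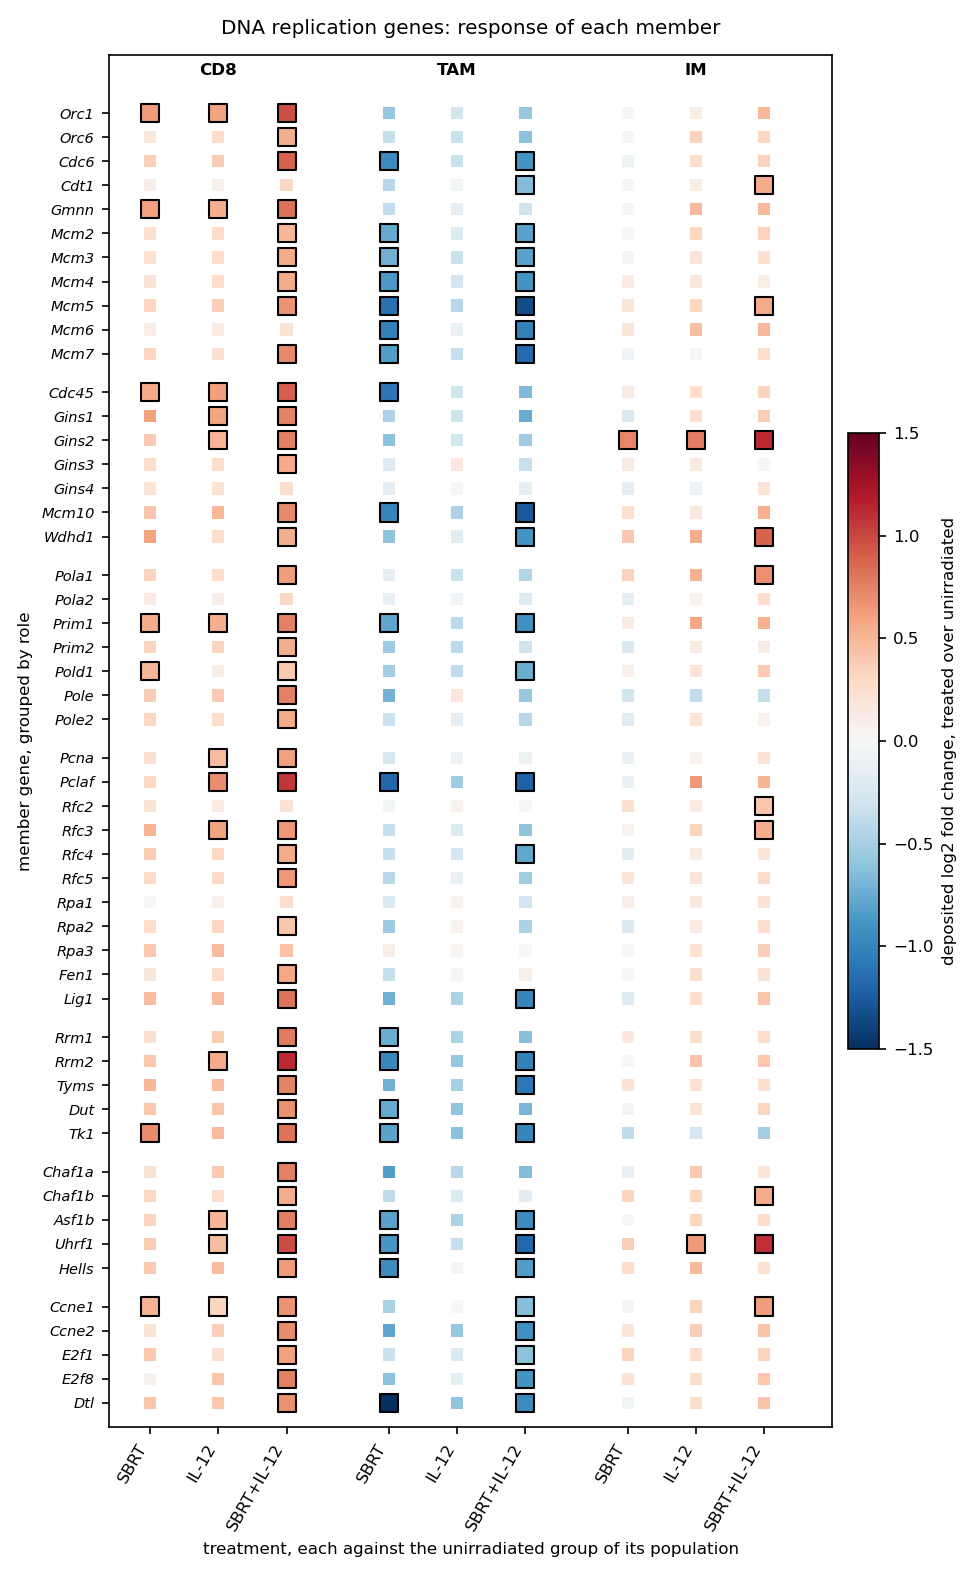
Each square is the authors' deposited log2 fold change of 1 member (rows, grouped by role) in 1 comparison (columns: CD8, TAM and IM, each with SBRT, IL-12 and SBRT+IL-12 against unirradiated); large outlined squares had an adjusted p below 0.05. The CD8 columns are all positive, with 44 outlined after SBRT+IL-12, and the TAM columns mostly negative, with 19 outlined after SBRT and 26 after SBRT+IL-12.

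In CD8 T cells members of every role rose after the combination, and fewer rose after either treatment alone. The authors' deposited table lists 44 of the 51 members as higher and 0 as lower after SBRT+IL-12, with all 51 fold changes positive and a median log2 fold change of 0.65. Among all 15115 genes tested there, 4.51% were higher and 2.96% lower, and the median was -0.03. By role, 9 of 11 licensing genes, 6 of 7 helicase activation genes, 6 of 7 polymerase and primase genes, 8 of 11 clamp and lagging strand genes and all 15 genes of the nucleotide synthesis, chromatin and S phase entry groups rose. The 7 that did not pass were Cdt1, Mcm6, Gins4, Pola2, Rfc2, Rpa1 and Rpa3, with log2 fold changes between 0.22 and 0.44.

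The change with the smallest adjusted p was that of Rrm2, whose product makes deoxynucleotides and limits their supply. Group levels implied by the deposited mean and fold changes carry no spread. The fold changes are shrunken, so implied levels here and below can lie closer together than the group means did. Those of Rrm2 were 15997 after SBRT+IL-12, 9656 after SBRT, 10843 after IL-12 and 7327 in unirradiated CD8 T cells. In the authors' deposited tables its log2 fold change was 1.13 ± 0.14 after the combination (adjusted p = 3.6e-12), 0.40 ± 0.14 after SBRT (adjusted p = 0.20) and 0.57 ± 0.14 after IL-12 (adjusted p = 0.0090). Only IL-12 and the combination thus passed for this gene. Pclaf, which encodes a PCNA-binding factor, rose by 1.07 ± 0.15 after SBRT+IL-12 (adjusted p = 2.6e-10), on implied levels of 13213 after SBRT+IL-12, 7812 after SBRT, 10242 after IL-12 and 6304 unirradiated. Uhrf1, which couples DNA methylation to replication, rose by 0.98 ± 0.14 (adjusted p = 1.2e-09) in the same deposited table, and Orc1, the largest subunit of the origin recognition complex, by 0.97 ± 0.15 (adjusted p = 4.6e-08). All 4 of these genes had positive fold changes in each CD8 comparison.

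The rest of the machinery rose in smaller steps after the combination in the authors' deposited table. Of the helicase ring, Mcm7 (0.72 ± 0.13), Mcm5 (0.67 ± 0.14), Mcm3 (0.56 ± 0.13), Mcm4 (0.56 ± 0.12) and Mcm2 (0.50 ± 0.12) rose, and Mcm6 was the subunit that did not pass. Cdc6, the loading factor, rose by 0.88 ± 0.16. Among polymerase genes, Pole rose by 0.75 ± 0.19, Pola1 by 0.63 ± 0.15 and Prim2, the regulatory primase subunit, by 0.54 ± 0.11. Of the clamp loader, Rfc3 and Rfc5 (0.65 each) and Rfc4 (0.56 ± 0.17) rose, and so did Lig1, the DNA ligase of the lagging strand (0.81 ± 0.15). The nucleotide synthesis genes beside Rrm2 were Tk1 (0.81 ± 0.15), Rrm1, the large subunit of ribonucleotide reductase (0.78 ± 0.14), Tyms, thymidylate synthase (0.74 ± 0.15), and Dut, which removes dUTP (0.69 ± 0.15). Asf1b (0.77 ± 0.14) and Chaf1a (0.75 ± 0.12), which encode histone chaperones, and E2f8 (0.76 ± 0.21), E2f1 (0.62 ± 0.12), Ccne2 (0.71 ± 0.21) and Dtl (0.68 ± 0.15), the regulators of entry, rose with them.

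Ccne1, the gene of cyclin E1, which drives entry into S phase, was the member that rose in all 3 CD8 comparisons with the smallest errors. Its implied levels were 3018 after SBRT+IL-12, 2724 after SBRT, 2394 after IL-12 and 1903 in unirradiated cells. The deposited log2 fold changes were 0.67 ± 0.09 after the combination (adjusted p = 9.4e-12), 0.52 ± 0.09 after SBRT (adjusted p = 2.4e-05) and 0.33 ± 0.09 after IL-12 (adjusted p = 0.011). Cdc45, which completes the active helicase, rose in all 3 as well, by 0.90 ± 0.13 after SBRT+IL-12 (adjusted p = 1.7e-09), 0.57 ± 0.13 after SBRT and 0.62 ± 0.13 after IL-12 in the authors' deposited tables. So did Orc1, Gmnn, the gene of the licensing inhibitor geminin, and Prim1, the catalytic primase subunit. Prim1 rose by 0.76 ± 0.12 after SBRT+IL-12 (adjusted p = 4.5e-08) on implied levels of 3612 after SBRT+IL-12, 3152 after SBRT, 3092 after IL-12 and 2133 unirradiated. Pcna rose after the combination (0.62 ± 0.10, adjusted p = 4.5e-08) and IL-12 (0.47 ± 0.10, adjusted p = 0.00047), and had 0.25 ± 0.10 after SBRT (adjusted p = 0.26).

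After SBRT alone, 7 members were higher in CD8 T cells in the authors' deposited table (0.306% of all genes tested were, and 0.165% lower), with a median over the 51 of 0.33 against 0.00 over all genes. They were Ccne1, Tk1, Orc1, Gmnn, Cdc45, Prim1 and Pold1. Tk1, the salvage enzyme thymidine kinase, had 0.71 ± 0.15 (adjusted p = 0.0068), and Pold1, the catalytic subunit of polymerase delta, 0.50 ± 0.13 (adjusted p = 0.048). After IL-12 alone, 13 members were higher (1.48% of all genes tested were, and 1.04% lower), with a median of 0.37 against -0.01 over all genes. The largest of these was Pclaf (0.70 ± 0.15, adjusted p = 0.00060), and Gins1, Gins2, Rfc3, Rrm2, Asf1b, Pcna and Uhrf1 passed here but not after SBRT in the deposited tables; whether the treatments differ is tested further on. With the Wald statistics divided by their spread over all genes (1.24 after SBRT, 1.30 after IL-12 and 1.40 after SBRT+IL-12), 1 member remained called after SBRT, 0 after IL-12 and 20 after SBRT+IL-12. Of 9 macrophage markers in the same libraries, all 9 were negative after SBRT+IL-12 (median -0.49, 0 called, 7 at p below 0.05), 8 were positive after SBRT (median 0.22, 0 called) and 8 negative after IL-12 (median -0.15, 0 called). Their summed implied level was 7938 after SBRT+IL-12, 13414 after SBRT, 10152 after IL-12 and 11605 unirradiated. After SBRT+IL-12 1 of 5 fibroblast markers (median -0.47) and 2 of 4 endothelial markers (median -0.32) fell and 1 of 7 myeloid progenitor markers rose, and after SBRT 1 of 6 B and plasma cell markers fell (median -0.54). After IL-12 1 of 4 endothelial markers fell and 1 of 5 NK cell markers rose. The part of these lists in the result was not tested.

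**Figure D2:**
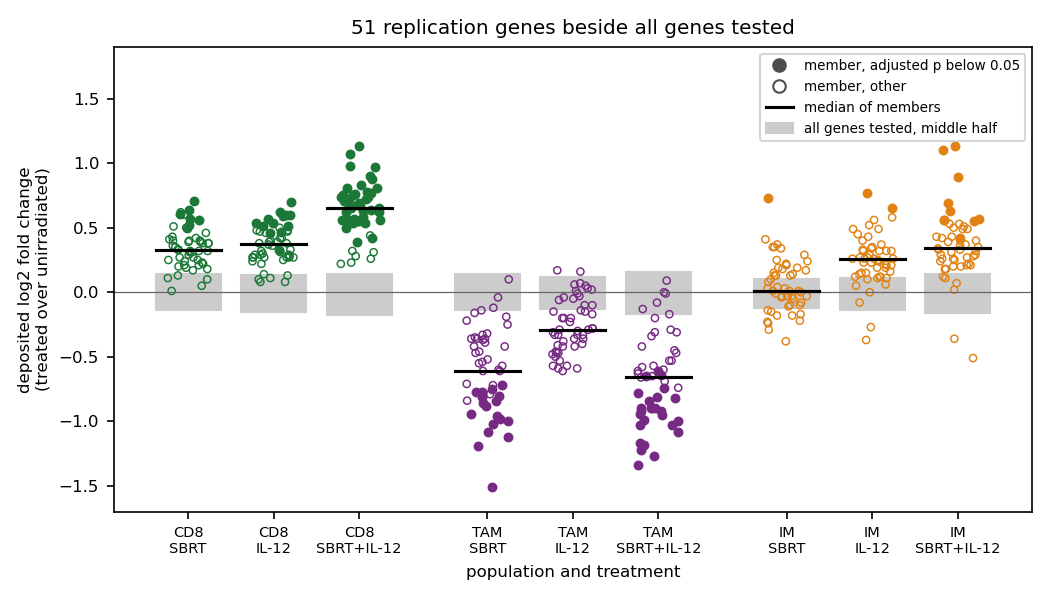
Points are the deposited log2 fold changes of the 51 members in each population and treatment, filled where the adjusted p was below 0.05; black lines are the members' medians and grey boxes span the lower to the upper quartile of all genes tested. The medians lie at 0.65 in CD8, -0.66 in TAM and 0.34 in IM after SBRT+IL-12.

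In TAM many of the same genes fell after SBRT and after the combination. The authors' deposited table lists 26 of 51 members as lower and 0 as higher after SBRT+IL-12 (1.97% of all 17224 genes tested were lower and 2.24% higher), with 49 negative fold changes and a median of -0.66 against 0.00 over all genes. After SBRT alone 19 were lower and 0 higher (1.15% of all genes tested were lower and 0.933% higher), with 50 negative and a median of -0.61 against 0.00. The licensing genes made up 8 of the 26 and 7 of the 19. After IL-12 alone the deposited test called 0 members (0.284% of all genes tested were lower and 0.651% higher); 14 had an unadjusted p below 0.05, all negative, the median was -0.29 against -0.01 over all genes, and Benjamini-Hochberg adjustment over every gene with a p also gave 0.

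Mcm5, a subunit of the helicase ring, had the smallest adjusted p after the combination. Its implied level in TAM was 1093 after SBRT+IL-12, 1275 after SBRT, 2075 after IL-12 and 2770 unirradiated. The deposited log2 fold change was -1.34 ± 0.22 after SBRT+IL-12 (adjusted p = 3.8e-07), -1.12 ± 0.22 after SBRT (adjusted p = 9.6e-05) and -0.42 ± 0.19 after IL-12 (adjusted p = 0.60). Both irradiated groups thus passed for this gene, and the IL-12 group did not. All 6 ring subunits fell in both irradiated groups of the authors' deposited tables: after SBRT+IL-12 Mcm7 had -1.17 ± 0.22, Mcm6 -1.03 ± 0.22, Mcm4 -0.90 ± 0.21, Mcm3 -0.82 ± 0.20 and Mcm2 -0.81 ± 0.23. Mcm10, which helps to fire loaded helicases, fell by 1.27 after SBRT+IL-12 (adjusted p = 0.00027) and by 1.0 after SBRT (adjusted p = 0.021). Of the loading factors, Cdc6 fell in both (-0.90 ± 0.26 after SBRT+IL-12 and -0.96 ± 0.25 after SBRT), Cdt1 passed after SBRT+IL-12 alone (-0.65 ± 0.20, adjusted p = 0.035; -0.42 ± 0.20 after SBRT), and Orc1, Orc6 and Gmnn passed in neither.

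Dtl, the substrate receptor of the ubiquitin ligase that destroys Cdt1 in S phase, fell most of all members after SBRT in the deposited table (-1.51 ± 0.26, adjusted p = 2.2e-06). Its implied level in TAM was 278 after SBRT+IL-12, 189 after SBRT, 357 after IL-12 and 537 unirradiated. After the combination its deposited fold change was -0.95 ± 0.27 (adjusted p = 0.016), and the other 4 regulators of S phase entry, Ccne1, Ccne2, E2f1 and E2f8, fell with it, by between 0.61 and 0.92. After SBRT none of these 4 passed (-0.33 to -0.79).

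Among the nucleotide synthesis genes, all 5 had negative fold changes in each TAM comparison. Rrm2 fell by 1.03 after SBRT+IL-12 (adjusted p = 0.0018) and 0.98 after SBRT (adjusted p = 0.0060) in the authors' deposited tables, on implied levels of 567 after SBRT+IL-12, 587 after SBRT, 778 after IL-12 and 1159 unirradiated. Tk1 fell by 1.0 after SBRT+IL-12 (adjusted p = 0.00032) and 0.80 after SBRT (adjusted p = 0.014), and Tyms by 1.08 after SBRT+IL-12 (adjusted p = 0.0012). Dut and Rrm1 passed after SBRT (-0.77 ± 0.23 and -0.75 ± 0.23) and had -0.69 ± 0.23 and -0.63 ± 0.23 after SBRT+IL-12. Pclaf (-1.22 ± 0.27), Uhrf1 (-1.18 ± 0.25), Lig1 (-0.99 ± 0.22), Asf1b (-0.94 ± 0.22) and Prim1 (-0.92 ± 0.22) fell after SBRT+IL-12 too. Cdc45 fell after SBRT (-1.08 ± 0.26, adjusted p = 0.0038) and had -0.66 ± 0.28 after SBRT+IL-12 (adjusted p = 0.21), and Hells, a chromatin remodeller, fell in both (-0.84 ± 0.26 after SBRT+IL-12 and -0.94 ± 0.26 after SBRT).

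Several abundant genes of the fork did not pass in TAM. Pcna had a deposited log2 fold change of -0.08 ± 0.18 after SBRT+IL-12 and -0.25 ± 0.18 after SBRT, with implied levels of 5299 after SBRT+IL-12, 4723 after SBRT, 5369 after IL-12 and 5604 unirradiated. Rfc2, of the clamp loader, had 0.00 ± 0.15 after SBRT+IL-12, and Rpa3, of the single-strand binding protein, -0.01 ± 0.21. Of the 11 genes of that group, 3 fell after SBRT+IL-12 in the authors' deposited table, Pclaf, Rfc4 and Lig1; differences between members were not tested. With an adjusted p below 0.01 in place of 0.05, 7 of the 19 calls after SBRT and 15 of the 26 after SBRT+IL-12 remained; dividing the statistics after SBRT+IL-12 by their spread of 1.16 also left 15.

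Markers of other cells in TAM moved in part alongside. The 8 T cell markers were all negative after SBRT (median -0.37, 0 called) and 6 of 8 positive after SBRT+IL-12 (median 0.15, 0 called), with summed implied levels of 1997 after SBRT+IL-12, 1440 after SBRT, 1403 after IL-12 and 1884 unirradiated. Epithelial and tumour cell markers, 6 in number with Epcam at a mean level of 4.61, summed to 2702 after SBRT+IL-12, 1659 after SBRT, 2165 after IL-12 and 2554 unirradiated, with 0 called in any TAM comparison of the deposited tables. Epithelial markers had a median of -0.61 after SBRT, with 4 at an unadjusted p below 0.05, and of 0.04 after SBRT+IL-12. The 5 fibroblast markers summed to 1735 after SBRT+IL-12, 1592 after SBRT, 2162 after IL-12 and 2725 unirradiated, and Col1a1 fell in both irradiated groups (-1.09 ± 0.25 after SBRT+IL-12 and -1.47 ± 0.24 after SBRT). Of 7 monocyte markers, 2 rose, Plac8 among them, and F13a1 fell in each of the 3 TAM comparisons of the authors' deposited tables. Of 6 B and plasma cell markers, 6 were negative and 2 fell after SBRT (median -0.29), and 5 were negative and 1 fell after SBRT+IL-12 (median -0.22). After SBRT+IL-12 1 of 9 macrophage markers fell, and after IL-12 1 of 7 dendritic cell markers rose. Mitochondrially encoded genes were negative in 13 of 13 cases in each TAM comparison, with 0 called and medians of -0.10 after SBRT+IL-12, -0.28 after SBRT and -0.32 after IL-12. Of 7 myeloid progenitor markers, which summed to 487 after SBRT+IL-12, 501 after SBRT, 540 after IL-12 and 699 unirradiated, Ms4a3 was listed at 0. The part of these lists in the result was not tested.

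In inflammatory monocytes few members changed, and those that did rose. The authors' deposited table lists 10 of 51 as higher and 0 as lower after SBRT+IL-12 (3.69% of all 18660 genes tested were higher and 3.03% lower), with 49 positive fold changes and a median of 0.34 against -0.02 over all genes. After IL-12 alone 2 were higher (1.91% of all genes tested were, and 1.33% lower), with a median of 0.26 against -0.02, and after SBRT alone 1 was higher (0.379% of all genes tested were, and 0.14% lower), with a median of 0.01 against -0.02. The counts after the single treatments are small: 10 members had an unadjusted p below 0.05 after IL-12, and 3 after SBRT.

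Gins2, of the GINS complex, was the 1 member called in all 3 IM comparisons. Its implied level was 300 after SBRT+IL-12, 228 after SBRT, 235 after IL-12 and 137 unirradiated, and the deposited log2 fold change was 1.13 ± 0.18 (adjusted p = 8.1e-08), 0.73 ± 0.18 (adjusted p = 0.017) and 0.77 ± 0.18 (adjusted p = 0.0014) in that order. The 3 other GINS genes passed in no IM comparison, with 0.37 ± 0.22 for Gins1, 0.02 ± 0.22 for Gins3 and 0.21 ± 0.15 for Gins4 after SBRT+IL-12. Gse1, on the opposite strand over most of the Gins2 exons, had 0.38 ± 0.16 after SBRT+IL-12 (adjusted p = 0.16), 0.13 ± 0.16 after SBRT and 0.17 ± 0.16 after IL-12 in the same deposited tables. Gins2 reads and Gse1 reads cannot be told apart where the exons overlap.

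Uhrf1 rose in IM after SBRT+IL-12 (1.10 ± 0.21, adjusted p = 7.2e-06) and IL-12 (0.65 ± 0.20, adjusted p = 0.041), on implied levels of 722 after SBRT+IL-12, 437 after SBRT, 529 after IL-12 and 337 unirradiated. The 8 other members that rose after the combination in the authors' deposited table were Wdhd1, which tethers polymerase alpha to the helicase (0.89 ± 0.22, adjusted p = 0.0016), Pola1, the catalytic subunit of that polymerase (0.69 ± 0.22), Ccne1 (0.63 ± 0.20), Mcm5 (0.57 ± 0.19), Cdt1 (0.56 ± 0.17), the histone chaperone gene Chaf1b (0.56 ± 0.19), Rfc3 (0.55 ± 0.18) and Rfc2 (0.42 ± 0.12). None of the 5 nucleotide synthesis genes was among them, and Tk1 had -0.51 ± 0.21 (adjusted p = 0.14). At an adjusted p below 0.01, 3 of the 10 remained after SBRT+IL-12, and 2 with the statistics divided by their spread of 1.28. In the same libraries every gene of the mitochondrial genome, taken as a mark of RNA quality, was negative in the 3 IM comparisons (13 of 13 each, medians of -0.32 after SBRT+IL-12, -0.29 after SBRT and -0.27 after IL-12, with 1 called after SBRT+IL-12), and of 7 monocyte markers 2 rose and 4 fell, both after IL-12 and after SBRT+IL-12. After SBRT+IL-12 3 of 9 macrophage markers rose and 1 fell, 1 of 7 dendritic cell markers rose and 2 fell, 1 of 4 endothelial markers rose and 1 of 6 epithelial markers fell. With IL-12 alone 1 of 9 macrophage markers rose and 1 fell, and 2 of 7 dendritic cell markers and 1 of 6 epithelial markers fell. The part of these lists in the result was not tested.

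**Figure D3:**
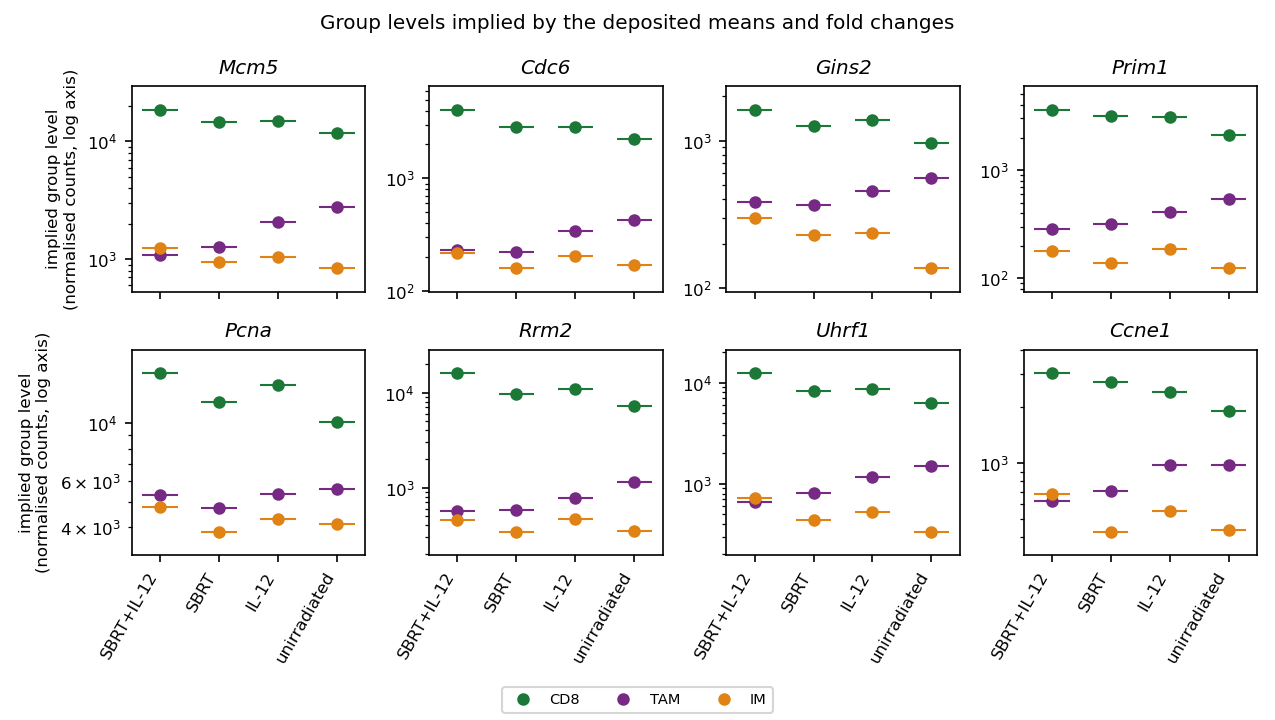
Each mark is the group level (normalised counts, log axis) of 1 member that follows from the deposited mean and shrunken fold changes, for SBRT+IL-12, SBRT, IL-12 and unirradiated groups in CD8, TAM and IM. It has no spread, and levels were scaled separately in each population. Mcm5 lies at 18592 after SBRT+IL-12 against 11705 unirradiated in CD8, and at 1093 against 2770 in TAM.

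The responses of CD8 T cells and TAM differed in a direct test. For each member the TAM log2 fold change was subtracted from that of CD8 and set against the combined error (2-sided normal test, Benjamini-Hochberg over all genes). The fold changes are shrunken, and levels and library numbers differ between populations. Unequal shrinkage can therefore enter the differences between populations here and below, and how much was not tested. After SBRT+IL-12 42 of 51 differences passed, all higher in CD8 (1.56% of all 29336 genes tested were, and 0.903% lower), with all 51 positive and a median of 1.33 against -0.01 over all genes. After SBRT 29 passed, again all higher in CD8 (0.488% of all genes tested were, and 0.175% lower; median 1.0), and after IL-12 5 did (0.148%, and 0.108% lower; median 0.60). Populations share no libraries, although the labels do not say whether they were sorted from the same tumours. The differences between populations and between treatments were not repeated with the statistics divided by their spread. After SBRT+IL-12 that step left 20 members called in CD8 and 15 in TAM, so the counts of differences may be too high.

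The widest difference after SBRT+IL-12 was that of Pclaf, 2.29 ± 0.31 (95% interval 1.69 to 2.89, adjusted p = 2.0e-10). Uhrf1 (2.16 ± 0.29), Rrm2 (2.16 ± 0.28), Mcm5 (2.01 ± 0.26) and Mcm10 (1.99 ± 0.32) followed. After SBRT the widest was Dtl, 1.93 ± 0.30 (adjusted p = 2.2e-07), then Cdc45 (1.65 ± 0.29) and Tk1 (1.51 ± 0.26). The 5 that passed after IL-12 were Pclaf (1.23 ± 0.29), Rrm2 (1.14 ± 0.26), Tk1 (1.08 ± 0.25), Asf1b and Prim1, and all 5 also passed after SBRT and after SBRT+IL-12. At the other end stood Rfc2, at 0.22 after SBRT+IL-12 with a 95% interval from -0.17 to 0.61, and Gins4, at 0.41 with an interval from -0.02 to 0.85.

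**Figure D4:**
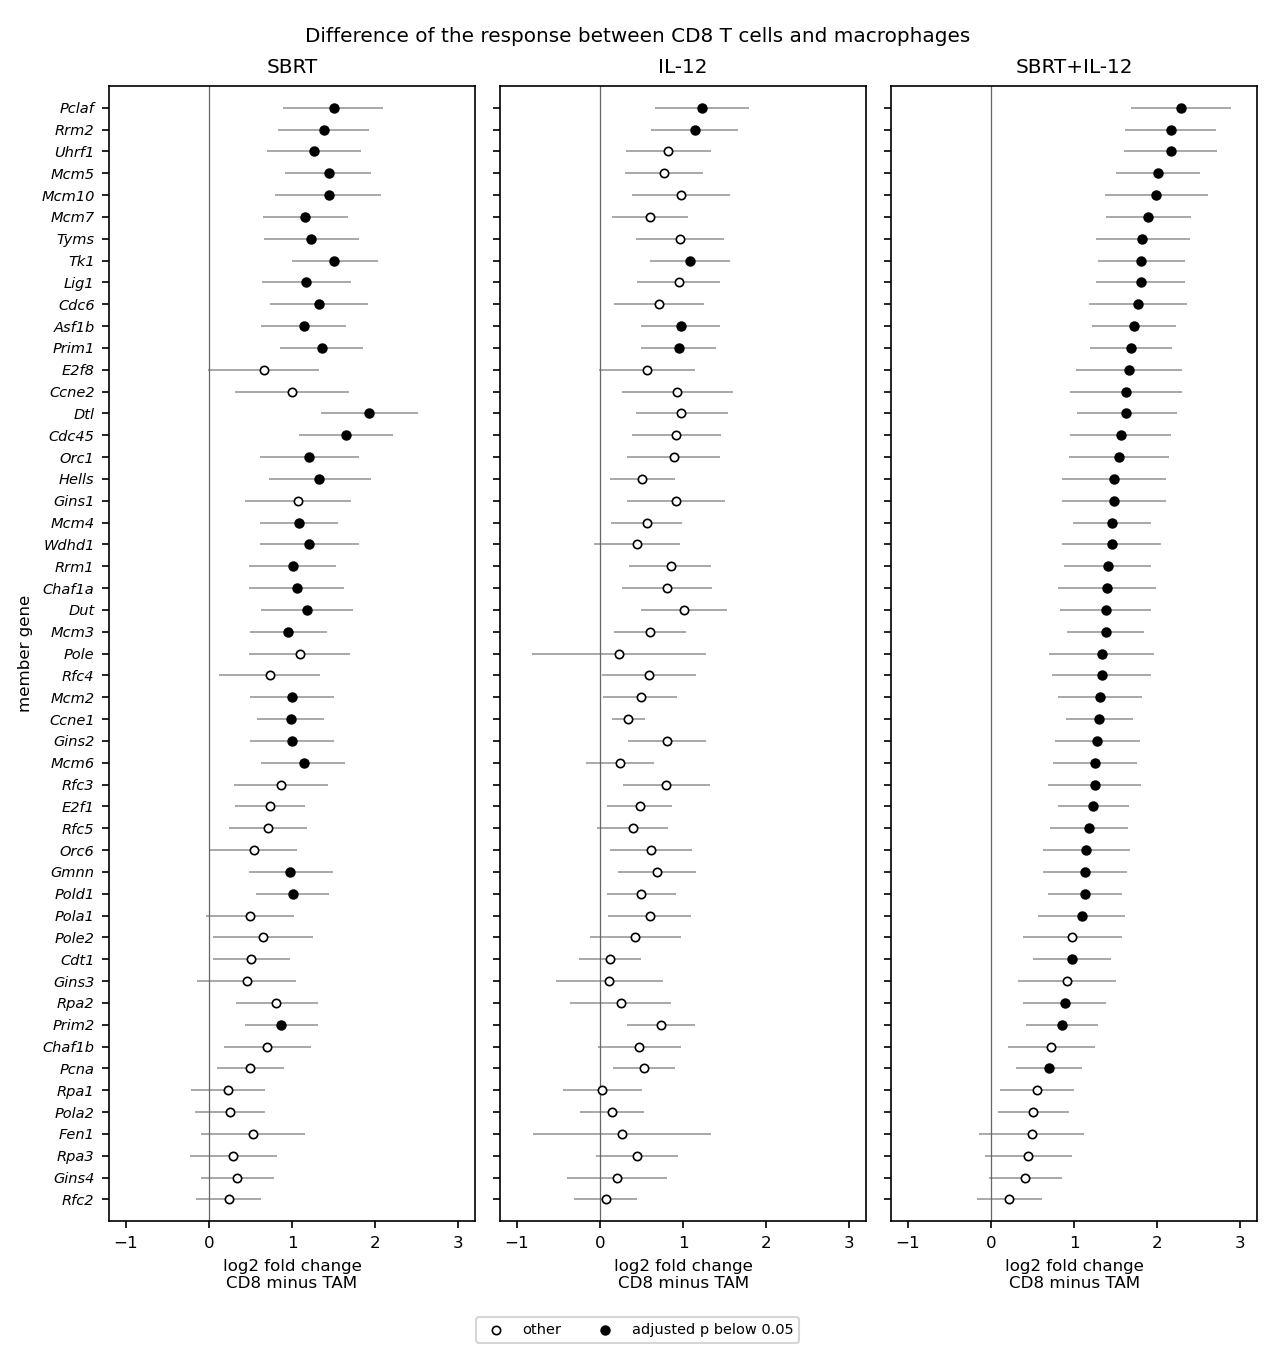
Points give the log2 fold change in CD8 minus that in TAM for each member (rows, in the order of the SBRT+IL-12 panel), with 95% intervals; filled points passed at an adjusted p below 0.05. All 51 points lie above 0 in each panel, and 29 passed after SBRT, 5 after IL-12 and 42 after SBRT+IL-12. A few TAM IL-12 errors departed from those of the same gene after the other treatments, so their intervals are uncertain. In TAM Ccne1 had 0.06 after IL-12 against 0.19 after SBRT, and Pole 0.50 against 0.25.

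Of the 44 members higher in CD8 after the combination and the 26 lower in TAM, 24 were the same genes, which is 54.5% of the CD8 list and 92.3% of the TAM list. Of all 51 members 86.3% rose in CD8 and 51% fell in TAM, so these shares lie near those of the members as a whole. The 2 that fell in TAM without passing in CD8 were Cdt1 and Mcm6. Mcm6 had the widest gap of this kind: in the authors' deposited tables it had 0.22 ± 0.14 in CD8 (adjusted p = 0.40) and -1.03 ± 0.22 in TAM (adjusted p = 0.00035). The 20 that rose in CD8 without passing in TAM included Pcna, Fen1, Chaf1b, Gmnn and Orc1. After SBRT alone 3 members, Cdc45, Prim1 and Tk1, both rose in CD8 and fell in TAM, which is 42.9% of the CD8 list and 15.8% of the TAM list, against 37.3% of all members that fell in TAM and 13.7% that rose in CD8. Rpa1, Rpa3, Pola2 and Gins4 were called in none of the 9 comparisons.

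**Figure D5:**
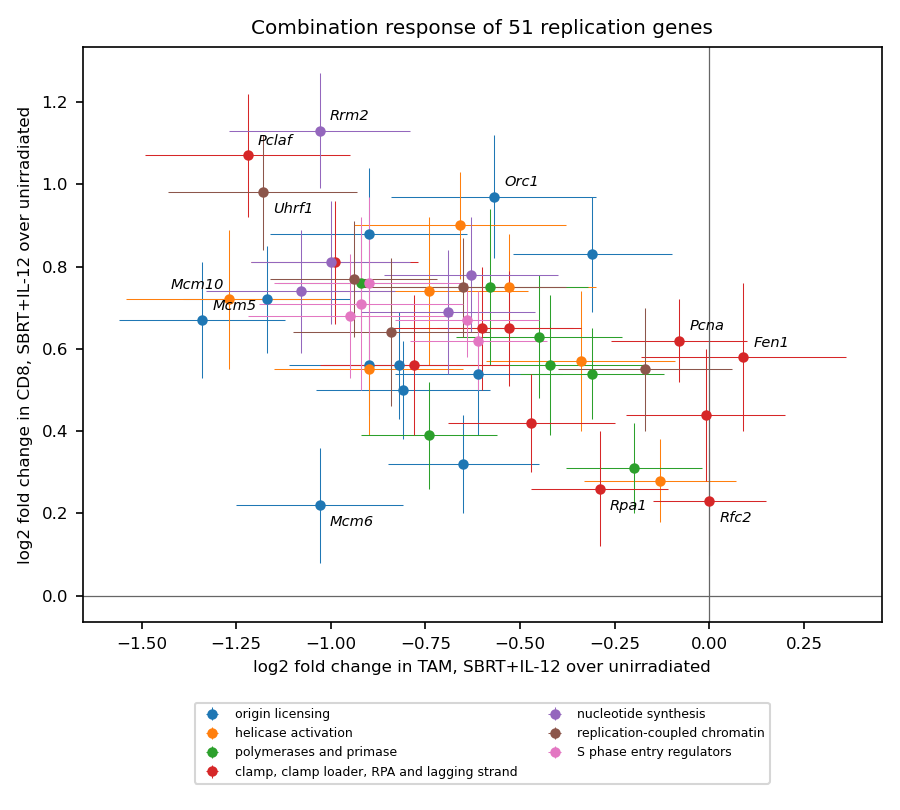
Each point is a member, placed by its deposited log2 fold change after SBRT+IL-12 over unirradiated in TAM (horizontal) and CD8 (vertical), with implied standard errors as bars and colours for the roles. All points lie above 0 on the CD8 axis and 49 of 51 lie below 0 on the TAM axis.

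TAM and IM also differed. After SBRT+IL-12 the response was lower in TAM than in IM for 26 members (0.583% of all genes tested were lower and 0.364% higher), with all 51 differences negative and a median of -1.06. Uhrf1 led (-2.28 ± 0.32, adjusted p = 7.9e-09), followed by Mcm5 (-1.91 ± 0.29), Wdhd1 (-1.80 ± 0.33), Mcm10 (-1.79 ± 0.35), Pclaf (-1.73 ± 0.34) and Gins2 (-1.66 ± 0.29). After SBRT 5 were lower (0.116% of all genes tested were, and 0.163% higher): Dtl (-1.47 ± 0.31), Gins2 (-1.34 ± 0.29), Mcm5 (-1.30 ± 0.29), Uhrf1 (-1.25 ± 0.32) and Mcm6 (-1.19 ± 0.29). After IL-12 the normal test passed 0, with 25 at an unadjusted p below 0.05, all lower in TAM (0.0177% of all genes passed as lower and 0.0567% as higher), and 0 with an error shared by the tables of a population.

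Between CD8 and IM the test passed few members. After SBRT+IL-12 Tk1 (1.31 ± 0.26, adjusted p = 0.00012) and Pole, the catalytic subunit of polymerase epsilon (1.11 ± 0.30, adjusted p = 0.019), were higher in CD8 (0.896% of all genes tested were, and 1.14% lower). These were the 2 members with negative fold changes in IM. The median difference was 0.33, and for Mcm5 the difference was 0.10 with a 95% interval from -0.36 to 0.56, so a smaller difference in either direction was not detectable. After SBRT and after IL-12 the normal test passed 0 members, with 13 and 3 at an unadjusted p below 0.05, and 0 with the shared error (0.0133% of all genes passed as higher and 0.00665% as lower after SBRT, and 0.243% and 0.27% after IL-12).

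Whether the combination moved the members further than its parts was tested within each population. In the conservative test, which leaves out the covariance through the shared unirradiated libraries, 0 members passed in any of the 9 differences between treatments. The share of all genes that passed it is given beside each difference.

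In CD8 the combination minus SBRT had a median of 0.28, with 12 members at an unadjusted p below 0.05, all higher (0.104% of all genes passed as higher and 0.0369% as lower). Pclaf led (0.76, 95% interval 0.35 to 1.16, adjusted p = 0.11), followed by Rrm2 (0.73, 95% interval 0.34 to 1.12, adjusted p = 0.13). The combination minus IL-12 also had a median of 0.28, with 8 such members (0.0123% of all genes passed as higher and 0.0% as lower). SBRT minus IL-12 had a median of -0.02, with 1 member at that level (0.0334% and 0.0304% of all genes). With the control variance removed, 7 members passed for the combination minus SBRT and 2 for the combination minus IL-12, all higher after the combination.

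In TAM the combination minus SBRT had a median of -0.09, with 0 members at an unadjusted p below 0.05 by the normal test (0.0155% of all genes passed as higher and 0.00619% as lower) and 0 passing with the control variance removed. The combination minus IL-12 had -0.43 with 12 at that level, all lower (0.0745% and 0.0169% of all genes), led by Mcm6 and Mcm5 (-0.93 each), and 7 passed with the control variance removed. SBRT minus IL-12 had a median of -0.32 with 7 lower (0.101% and 0.0203% of all genes), led by Mcm6 (-0.92, 95% interval -1.45 to -0.39, adjusted p = 0.36), and 3 passed with the control variance removed. The implied error of Mcm6 in TAM was 0.16 after IL-12, against 0.22 after SBRT and after SBRT+IL-12. Its differences from IL-12 may therefore carry too small an error.

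In IM the combination minus SBRT had a median of 0.33, with 9 members higher at an unadjusted p below 0.05 (0.149% of all genes passed as higher and 0.0744% as lower), and 1 passed with the control variance removed. SBRT minus IL-12 had a median of -0.19 with 1 lower (0.0244% and 0.00915% of all genes), and the combination minus IL-12 a median of 0.09 with 0 at that level (0.0% in both directions). The interaction, the combination effect minus both single effects, passed for 0 members in any population, with 1 in TAM and 0 in CD8 and IM at an unadjusted p below 0.05, and 0 passed under each alternative error. Of all genes, 0.00617% passed as higher and 0.0278% as lower in CD8, 0.00677% in each direction in TAM, and 0.0% as higher and 0.00621% as lower in IM.

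The neighbouring lists show where this pattern reached beyond the members. Of 41 other replication genes, 26 rose in CD8 after SBRT+IL-12 in the authors' deposited table, with a median of 0.47, among them E2f2 (0.92 ± 0.16, adjusted p = 4.1e-06), Nasp, a histone chaperone gene (0.54 ± 0.10, adjusted p = 1.8e-05), and Recql4 (0.87 ± 0.17). In TAM 3 of the 41 fell after SBRT+IL-12, among them Topbp1, which helps to start replication (-0.85 ± 0.17, adjusted p = 0.00015), and Chtf18 (-0.92 ± 0.25), with a median of -0.25, against 26 of the 51 members. In IM 5 rose after SBRT+IL-12, with a median of 0.12, Rnaseh2b with the smallest adjusted p (0.67 ± 0.14, adjusted p = 7.9e-05). Of all genes tested after SBRT+IL-12, 4.51% were higher in CD8, 1.97% lower in TAM and 3.69% higher in IM. Differences between the lists were not tested.

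Of 20 mitotic genes, which act after replication, all 20 rose in CD8 after SBRT+IL-12 (median 0.87) and 18 after IL-12 (median 0.58), but 1 after SBRT (Bub1, 0.55 ± 0.14; median 0.23) in the authors' deposited tables. Among the 51 members the counts were 44, 13 and 7, and of all genes tested 4.51%, 1.48% and 0.306% were higher. Members and mitotic genes were not tested against each other. Mki67, the gene of the Ki-67 antigen, had 0.86 ± 0.12 after SBRT+IL-12, 0.37 ± 0.12 after SBRT and 0.51 ± 0.12 after IL-12. In TAM 13 mitotic genes fell after SBRT (median -0.90, with 1.15% of all genes tested lower) and 8 after SBRT+IL-12 (median -0.74, with 1.97% lower). Mki67 was not among these, at -0.01 ± 0.26 after SBRT and -0.28 ± 0.25 after SBRT+IL-12, and Top2a had -0.87 ± 0.24 after SBRT (adjusted p = 0.024) and -0.73 ± 0.24 after SBRT+IL-12 (adjusted p = 0.059). In IM 0 of the 20 were called by the deposited test, with 3 at an unadjusted p below 0.05 after SBRT+IL-12, 0 after SBRT and 4 after IL-12.

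Cdkn1a, the gene of the cyclin-dependent kinase inhibitor p21, rose in TAM after SBRT (1.41 ± 0.16, adjusted p = 6.2e-16) and after SBRT+IL-12 (1.29 ± 0.16, adjusted p = 5.2e-13) in the authors' deposited tables, and had 0.05 after IL-12. It also rose in CD8, by 0.94 ± 0.15 after SBRT+IL-12 and 0.59 ± 0.15 after SBRT, where replication genes rose as well. In IM it had -0.04 ± 0.12 after SBRT+IL-12 and 0.09 ± 0.12 after SBRT. Its mean level was 53555 in TAM, 43713 in IM and 4944 in CD8. Ccng1 rose beside it in TAM, by 1.38 ± 0.19 after SBRT and 1.35 ± 0.19 after SBRT+IL-12, and of 12 arrest genes in all, 2 rose and 1 (Cdkn2c) fell in each of these comparisons.

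The members' promoters were searched for the letters commonly given for E2F sites. RefSeq (GRCm38.p6) gave a 300-base window, 250 bases before and 50 after the annotated start, for 42 of the 51 members. TTTCCCGC, TTTCGCGC, TTTGCCGC or TTTGGCGC, on either strand, was found for 17 of the 42 (40.5%), against 704 of 27025 genes (2.6%). It was found for 12 of 33 other replication genes with a window (36.4%) and for 1 of 17 mitotic genes (5.88%). The share was 12 of 24 (50.0%) among members that fell in TAM after SBRT+IL-12 and 5 of 18 (27.8%) among the other members. These are small counts, and the difference between the 2 shares was not tested. CCAAT, on either strand, was found for 25 of the 42 members (59.5%), 14 of 17 mitotic genes (82.4%) and 41.1% of all genes. Such matches describe letters, not bound sites.

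Below are the 250 bases before the start of Mcm5, which had the smallest adjusted p in TAM after SBRT+IL-12, of Mcm6, which fell in TAM and did not pass in CD8, and of Dtl, which fell most in TAM after SBRT. They are shown because the matches lie wholly before the start and outside the gene as GENCODE records it. Sequences are from RefSeq, build GRCm38.p6, on the strand of the gene, and capitals mark the matches. Mcm5 is at chr8:75109259-75109508 (+ strand), Mcm6 at chr1:128359706-128359955 (- strand) and Dtl at chr1:191575545-191575794 (- strand).
Mcm5: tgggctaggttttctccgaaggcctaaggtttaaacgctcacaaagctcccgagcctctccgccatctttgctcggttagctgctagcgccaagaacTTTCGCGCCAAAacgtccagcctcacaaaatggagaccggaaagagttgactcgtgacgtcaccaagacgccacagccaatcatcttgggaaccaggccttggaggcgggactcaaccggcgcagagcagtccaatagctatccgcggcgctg
Mcm6: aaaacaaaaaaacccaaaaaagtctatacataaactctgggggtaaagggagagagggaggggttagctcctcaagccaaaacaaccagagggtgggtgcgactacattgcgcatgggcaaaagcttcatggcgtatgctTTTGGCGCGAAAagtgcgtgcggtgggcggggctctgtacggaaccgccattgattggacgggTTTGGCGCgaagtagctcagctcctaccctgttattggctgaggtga
Dtl: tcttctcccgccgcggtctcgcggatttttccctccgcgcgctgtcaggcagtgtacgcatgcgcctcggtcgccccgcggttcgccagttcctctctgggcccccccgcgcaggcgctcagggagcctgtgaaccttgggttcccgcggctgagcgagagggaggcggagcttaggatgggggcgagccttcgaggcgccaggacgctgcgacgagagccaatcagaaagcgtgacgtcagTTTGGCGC
In Mcm5 the capitals hold 2 overlapping matches on opposite strands, from base -153 to -142 before the start. In Mcm6 there are 3 between -110 and -40, of which the first and second overlap, and in Dtl 1 ends at the last base before the start.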

How the data were processed

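RNA sequencing of sorted CD8, TAM and IM populations was analysed from 9 tables of 53735 genes made by the authors; per-library counts were not used here, so depth per library is unknown and no counting interval is given. STAR 2.6.0c, featureCounts of Subread, Salmon, Trimmomatic 0.36 and FastQC 0.11.8 are named with the build GRCm38 per the submitters' processing notes; the annotation is not given in the sources used here. Per the labels' protocols, libraries were made with the TruSeq kit V2 and sequenced on a HiSeq instrument. Per the file headers the tables are DESeq2 results. The deposited level is a normalised signal averaged over the libraries of a population (baseMean per the file headers), and does not differ between its 3 tables. The deposited log2 fold change is treated over unirradiated and shrunken at low levels. Beside it stands the deposited Wald statistic, used as a score; the deposited p-value was its 2-sided normal p. The deposited adjusted p-value covers genes left after the authors' filter on level.

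Computed here were implied standard errors (fold change over statistic), differences between populations and treatments (2-sided normal test, Benjamini-Hochberg over all genes, threshold 0.05), and group levels implied by mean, shrunken fold changes and library numbers. Scripts used Python 3.11.15, pandas 2.3.3, numpy 2.4.6, scipy 1.17.1 and matplotlib 3.10.9. Some of the difference tests were run on simulated data with unshrunken effects and known errors. Such data cannot show how the tests behave on shrunken fold changes. Exon overlap and lengths came from GENCODE M21. The members, the lists and the comparisons were chosen with earlier results of these data known. Named genes were members called in any table, at most 8 per direction and comparison by adjusted p, members with high levels, and from the neighbouring lists at most 4 per comparison plus Cdkn1a, Mki67 and Top2a. Members outside this rule that are named were chosen after their values were seen. Alternatives were another adjustment, a threshold of 0.01, an empirical null, a level of at least 50, centring, shared errors and removal of the control variance.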

Additional observations from a re-analysis of the deposited data

Results flagged for a closer look

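Members whose response differed between populations under the same treatment, by the test of the difference itself, are given as counts, with the up to 3 members of smallest p each. For CD8 minus TAM 29 members differed after SBRT, among them Dtl (1.93), Cdc45 (1.65) and Tk1 (1.51). After IL-12 5 did, among them Pclaf (1.23), Rrm2 (1.14) and Tk1 (1.08), and after SBRT+IL-12 42 did, among them Mcm5 (2.01), Rrm2 (2.16) and Uhrf1 (2.16). For TAM minus IM 5 differed after SBRT, among them Dtl (-1.47), Gins2 (-1.34) and Mcm5 (-1.30), and 26 after SBRT+IL-12, among them Uhrf1 (-2.28), Mcm5 (-1.91) and Gins2 (-1.66). For CD8 minus IM 2 differed after SBRT+IL-12, Tk1 (1.31) and Pole (1.11). Values are differences of shrunken log2 fold changes.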

How the results depend on the processing

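Of 117 alternative values of the counts and medians, 98 stayed within the set margin and 19 moved. Direction was not part of this check for counts, and counts of 0 that stayed 0 are among the 98. All members had a mean level of at least 64.0, so a level of at least 50 could not change their medians. Centring could shift a median by at most 0.028. The 98 is therefore no measure of how stable the calls were. At a deposited adjusted p below 0.01 the members called were 3 after SBRT and 7 after IL-12 in CD8, 7 after SBRT and 15 after SBRT+IL-12 in TAM, and 0 after SBRT, 1 after IL-12 and 3 after SBRT+IL-12 in IM. With the empirical null they were 1 after SBRT, 0 after IL-12 and 20 after SBRT+IL-12 in CD8, 15 after SBRT+IL-12 in TAM, and 1 after IL-12 and 2 after SBRT+IL-12 in IM. Adjusting over every gene that had a p left 1 after IL-12 in IM. With the control variance removed, 7 members passed for the combination minus SBRT and 2 for the combination minus IL-12 in CD8, 7 for the combination minus IL-12 and 3 for SBRT minus IL-12 in TAM, and 1 for the combination minus SBRT in IM, each 0 in the conservative test. The level filter, centring and shared error moved no count past 1.5 times. No paired analysis was possible because the tables hold no per-library values, and for the same reason leaving out single libraries was not run. With 2 libraries in 3 of the 4 TAM groups, the TAM calls have the widest errors (median 0.23 over members after SBRT+IL-12, against 0.14 in CD8).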
